A study of Mus musculus with 24 samples.

Results

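The 10 genes described here belong to bone morphogenetic protein (BMP) signalling: the ligands Bmp2, Bmp4, Bmp6 and Bmp7, the secreted antagonist Grem1, the decoy receptor Bambi, the type I receptor Bmpr1a and the target genes Id1, Id2 and Id3. They were picked from the table by gene symbol and are 10 of the 18892 gene symbols in the deposited expression table of mouse skin. All 10 passed the filter on low values, which kept 13039 genes. The 24 libraries come from 24 mice, 4 in each of 6 groups. Control mice were injected every day with normal saline and had solvent on the skin. Model mice were given dihydrotestosterone (DHT, an androgen) by daily injection, also with solvent on the skin. Treatment mice were given the same daily DHT, and an extract of HLX (Hanlianxiang, a traditional Chinese medicine formula) was put on the skin in place of solvent alone. Skin was taken at day 10 or day 15 from different mice. Strain, age, sex and dose are not given in the sources used here. No group had DHT without solvent, or extract without DHT.

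BMP ligands are secreted dimers that bring type I and type II receptors together, and the type I receptor then phosphorylates Smad1, Smad5 and Smad9, which enter the nucleus with Smad4 and switch on targets such as the Id genes. Antagonists such as Grem1 bind the ligands outside the cell, and Bambi is a receptor-like protein without a kinase domain that blocks the receptors at the membrane. In the hair follicle, BMP signalling holds stem cells at rest between growth phases and directs matrix cells of the growing follicle into the hair shaft, and antagonists from the dermis lift the first of these effects when growth starts.

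The libraries held 3.31e+07 to 3.81e+07 reads assigned to genes, recovered from the steps in the deposited values. The basal keratinocyte markers Krt5 and Krt14 ranged from 336 to 783 and from 257 to 633 FPKM (fragments per kilobase, scaled for library size). Some libraries stood apart before any comparison. Treatment replicate 3 of day 15 had a summed level of 6 fibroblast markers of 2742 FPKM against 6527 to 9224 in the other libraries of its group, and the lowest correlation between libraries was 0.928 in that group and 0.943 in the model group of day 15, against at least 0.979 elsewhere. Summed FPKM of 8 kidney markers was 17.7 to 29.3 in the 8 control and model libraries of day 10 and at most 0.232 in the other 16. Within day 10 the sum was lower in model than in control libraries, 17.67 to 25.377 against 25.380 to 29.27 FPKM. The sum of 4 Y-linked genes was 22.3 to 33.4 FPKM in 4 treatment libraries (replicate 3 of day 10 and replicates 1, 2 and 4 of day 15) and at least 39.2 in the other 20.

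FPKM is a value per length, so levels can be set side by side between genes. Over the 24 libraries the median level was highest for Id3 at 73.0 FPKM, followed by Id2 at 54.7, Id1 at 50.8 and Bmpr1a at 45.1. The ranges of these 4 neighbours in the order overlapped, and all of their values, from 30.5 upwards, lay above every value of the other 6 genes. Bmp7 followed with a median of 15.6, then Bmp4 with 12.5, Bambi with 12.1 and Bmp2 with 7.92, again with overlapping ranges. Grem1 and Bmp6 had the lowest medians, 4.91 and 4.14 FPKM. The range of Grem1, from 1.19 to 18.3 FPKM, was wider than that of any other gene of the 10 in relation to its median, and its place in the order differed between groups. In model skin of day 15 its mean of 12.5 FPKM was above those of Bmp4 (10.1), Bambi (9.17) and Bmp2 (7.80), whereas in the control and treatment groups of that day it was the lowest of the 10. Each level rests on at least 291 reads per library, except Grem1, for which reads ranged from 72 to 1114.

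**Figure D1:**
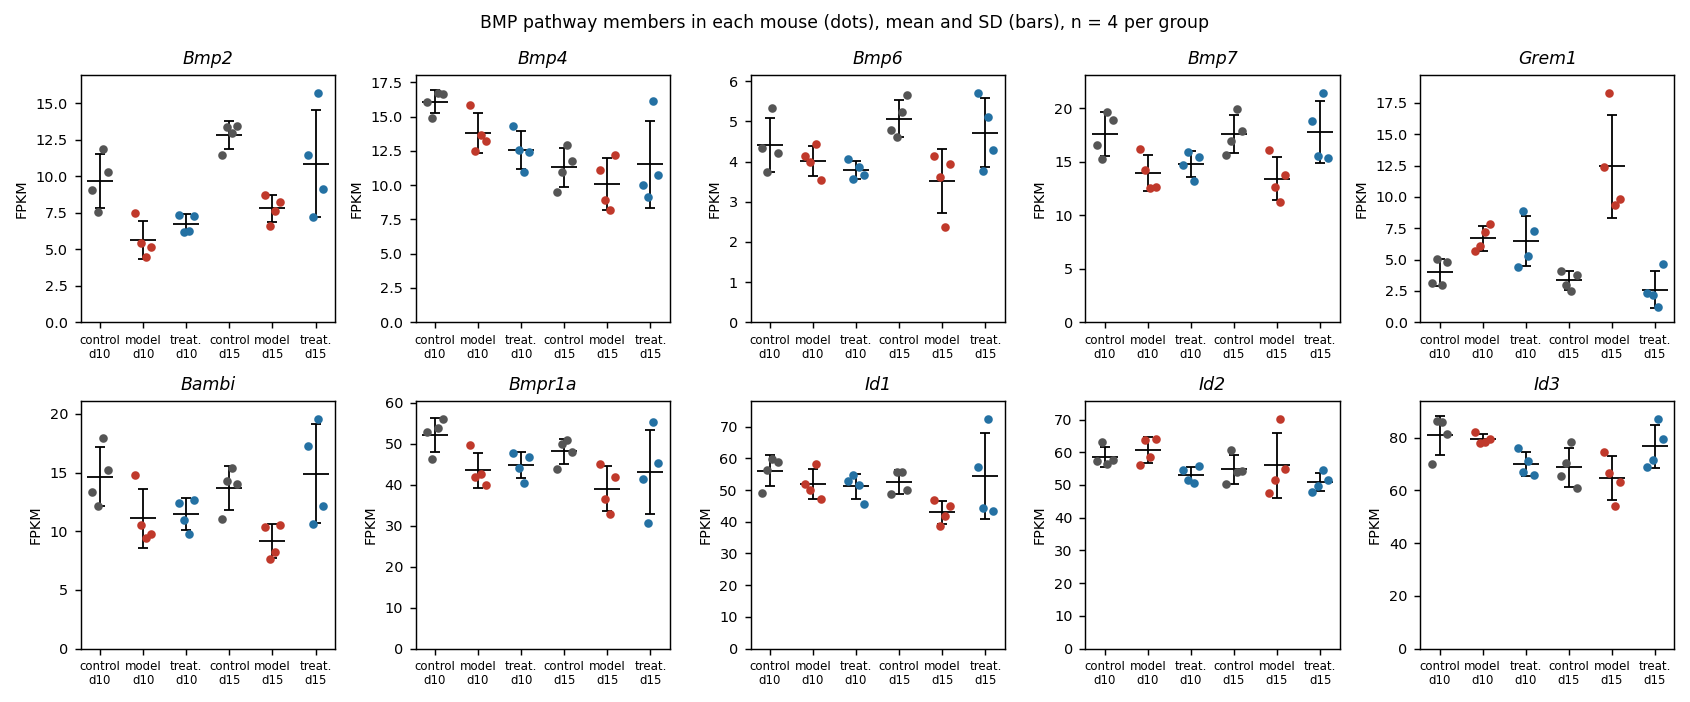
FPKM of each of the 10 genes (vertical axes, each from 0) in the 6 groups of 4 mice; dots are mice, the long bar is the mean and the capped line the SD. Grem1 lies between 9.33 and 18.3 FPKM in model mice of day 15 and between 1.19 and 4.65 in treatment mice of that day, while the group means of Id2 lie between 50.9 and 60.6 FPKM.

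Promoter sequences were available for 6 of the 10 genes in a RefSeq table of build GRCm38.p6, which differs from the build of the expression data (GRCm39). The 250 bases before the start of Grem1, the gene with the widest range, and of the targets Id2 and Id3 are shown 5′ to 3′ on the gene's own strand. Capitals mark GGCGCC, a GC-rich element that BMP-activated Smads are known to bind and that reads the same on both strands. Grem1 lies on the minus strand (window chr2:113758649-113758898), Id2 on the minus strand (chr12:25096093-25096342) and Id3 on the plus strand (chr4:136143572-136143821).
Grem1: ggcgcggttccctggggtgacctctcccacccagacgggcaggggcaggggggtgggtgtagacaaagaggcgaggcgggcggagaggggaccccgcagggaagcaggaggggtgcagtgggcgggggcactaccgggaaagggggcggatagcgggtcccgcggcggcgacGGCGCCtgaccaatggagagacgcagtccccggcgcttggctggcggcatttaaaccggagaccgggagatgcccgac
Id2: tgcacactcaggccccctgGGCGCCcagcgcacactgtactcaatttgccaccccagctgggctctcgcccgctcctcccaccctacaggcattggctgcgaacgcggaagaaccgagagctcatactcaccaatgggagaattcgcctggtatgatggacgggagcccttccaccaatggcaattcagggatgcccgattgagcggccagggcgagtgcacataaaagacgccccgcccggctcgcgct
Id3: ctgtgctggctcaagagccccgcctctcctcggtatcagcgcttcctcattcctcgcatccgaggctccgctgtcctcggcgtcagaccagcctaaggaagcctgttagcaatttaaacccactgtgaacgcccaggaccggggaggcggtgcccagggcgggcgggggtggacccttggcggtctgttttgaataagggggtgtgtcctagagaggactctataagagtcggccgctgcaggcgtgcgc
The element began 78 bases before the start of Grem1 and 231 bases before that of Id2. Bmpr1a, not printed, held it at 198 bases, and Id3, Bmp4 and Bmp6 had no match in this window. Of 32851 mouse promoters of the same length 3149 (9.59%) held the element. The 6 windows held 62.8% to 78.8% G and C. The share among promoters of like composition was not computed. The Smad3 and Smad4 palindrome GTCTAGAC (55 promoters, 0.167%) and the androgen receptor half-site AGAACA, searched on both strands (5284 promoters, 16.1%), were in none of the 6. A match describes the letters only, and none of the comparisons measured binding.

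Model against control asks what daily DHT changed, and treatment against model what the extract changed under DHT. Tests were made with limma on log2(FPKM + 1) over all genes, and a gene is called at an adjusted p under 0.05. At day 10, 1 of the 10 genes was called between model and control, Bmp2, lower in model. Of all tested genes 13.8% were called in that comparison, 6.79% higher and 7.04% lower. The 3 tested kidney markers were among those lower in model, so this difference between the libraries and DHT cannot be told apart at day 10. At day 15, 5 of 10 were called, Grem1 higher and Bmp2, Bmp6, Bmp7 and Bambi lower in model, with 10.8% of all genes called (4.23% higher, 6.56% lower). The median difference of the 10 genes was -0.16 at day 10 and -0.29 at day 15 on the log2 scale, against -0.02 and -0.03 over all tested genes. Between treatment and model none of 10 was called at day 10, when 0.192% of all genes were. Voom, a limma fit on the recovered reads, also called none of the 10. In the main fit 1 of the 10 and 1360 of the 13039 tested genes had an unadjusted p under 0.05. At day 15, 4 of 10 were called, Grem1 lower and Bmp6, Bmp7 and Bambi higher in treatment, with 19.7% of all genes called (10.3% higher, 9.32% lower) and a median difference of 0.28 against -0.02 over all genes. Treatment replicates 1, 2 and 4 of that day were low in Y-linked genes, and 2 of 4 Y-linked genes were called lower in this comparison. A fit without the libraries low in these genes keeps only 1 treatment library of that day. The part of the low Y-linked values in the result was therefore not tested. Leaving out 1 library at a time gave 1 to 5 calls in model against control at day 15, with 1 left without control replicates 3 or 4 or model replicates 2 or 3. It gave 1 to 6 in treatment against model, with 1 left without model replicate 2 or treatment replicate 1, and 2 (Grem1 and Bambi) without treatment replicate 3, the library that stood apart. Array weights left 1 call in treatment against model at day 15 and a fit of only those groups left 0. Both comparisons of a day use the same model libraries, so an opposite sign in them is in part built in.

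**Figure D2:**
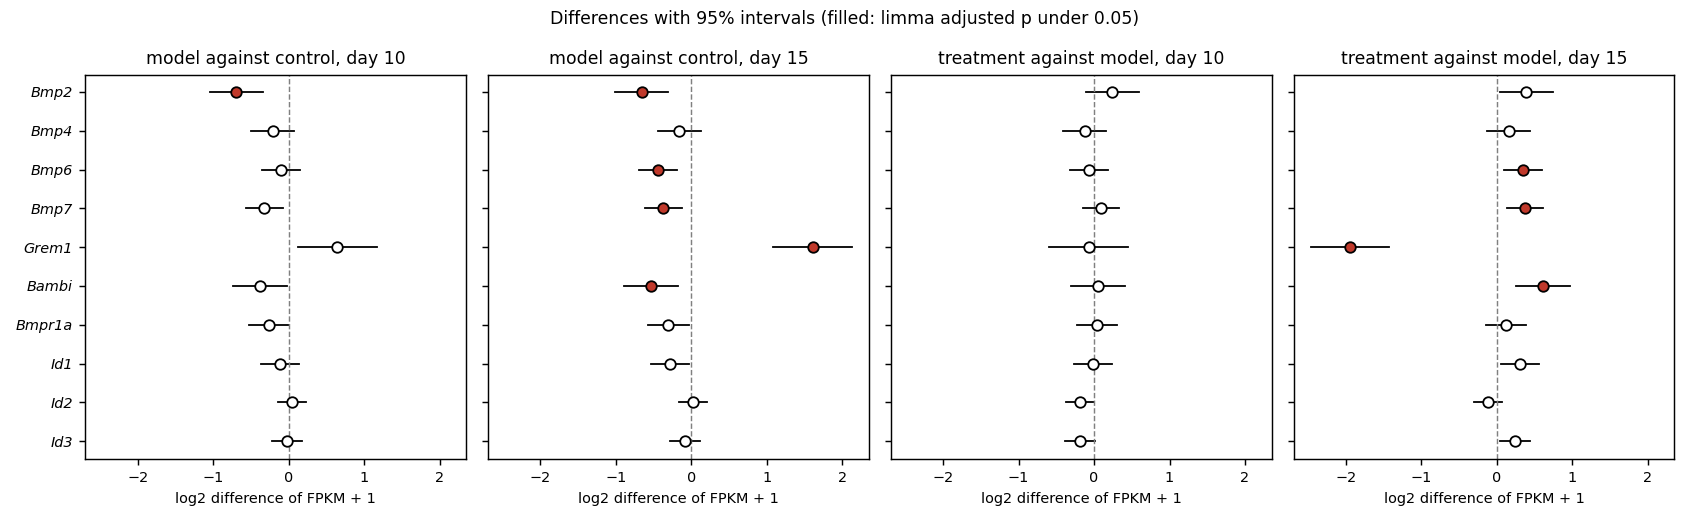
Differences in log2(FPKM + 1) with 95% intervals (horizontal axes) for the 10 genes in the 4 main comparisons, 4 mice a group; filled points have a limma adjusted p under 0.05. Grem1 stands at 1.61 in model against control and at -1.94 in treatment against model at day 15, and all 10 points of treatment against model at day 10 lie between -0.19 and 0.24.

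Grem1, the antagonist, showed the largest differences among the 10 genes at day 15. In control mice of day 15 it stood at 4.12, 2.94, 2.48 and 3.79 FPKM, in model mice at 12.3, 18.3, 9.33 and 9.85, and in treatment mice at 2.32, 2.21, 1.19 and 4.65. All 4 model mice lay above all 8 others. The mean was 3.33 ± 0.757 FPKM (SD, n = 4) in control, 12.5 ± 4.11 in model and 2.59 ± 1.47 in treatment skin. In model against control Grem1 rose by 1.61 on the log2 scale (SE 0.249, limma adjusted p = 0.0026), and in treatment against model it fell by 1.94 (SE 0.249, adjusted p = 0.00045). Treatment and control mice of day 15 overlapped, and their difference of -0.34 had a 95% interval from -0.86 to 0.18 (limma adjusted p = 0.47).

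At day 10 Grem1 stood at 3.12, 5.02, 2.98 and 4.80 FPKM in control, 5.72, 6.06, 7.18 and 7.84 in model and 4.44, 8.89, 5.30 and 7.30 in treatment mice. Model and control mice did not overlap, but the difference of 0.65 was not called (limma adjusted p = 0.086). Treatment and model mice overlapped, with a difference of -0.07 and a 95% interval from -0.59 to 0.45. Whether the differences changed between days was tested in the same fit. The treatment-model difference of Grem1 changed from day 10 to day 15 by -1.87 on the log2 scale (SE 0.352, limma adjusted p = 0.036), 1 of 13 such genes in the whole table (0.0997%). This call was lost when any 1 of 9 of the 16 libraries was left out, with adjusted p of up to 0.12, among them all 4 model libraries of day 10. The other 9 genes of the 10 were not called there. The 3 tested kidney markers were also among the 13, with a positive change. The kidney difference between the libraries of day 10 and this change with the day cannot be told apart. For the model-control difference none of the 13039 genes was called (0%, with 352 genes at an unadjusted p under 0.05), and Grem1 had a change of 0.96 (limma unadjusted p = 0.013, adjusted p = 1).

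The Grem1 call in model against control at day 15 was made without any 1 of the 8 libraries and under each alternative. That in treatment against model was also made without any 1 library, but a fit of only those 8 libraries, which called none of 12527 genes, gave a limma adjusted p of 0.13. With treatment replicate 3 as the only treatment library of day 15, after the libraries low in Y-linked genes were left out, the difference was -2.58. Fibroblast markers, 6 genes with Col1a1 and Pdgfra among them, moved with Grem1: their summed level was 4717 to 5792 FPKM in control, 7358 to 13970 in model and 2742 to 9224 in treatment mice of day 15. The model mouse with the highest Grem1 also had the highest fibroblast sum, and the treatment mouse with the lowest Grem1 the lowest. Treatment replicates 1 and 2 of day 15 had sums of 7804 and 9224 with Grem1 at 2.32 and 2.21 FPKM, and model replicate 3, with a sum of 7358, had Grem1 at 9.33. Of the 6 markers 2 were called higher in model against control at each day and 2 lower in treatment against model at day 15. Of 6 macrophage markers 3 were called higher and 2 lower in the same comparisons of day 15. The part of these cells in the Grem1 differences was not tested. In bulk skin, fewer cells of a type and less RNA per cell cannot be told apart.

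**Figure D3:**
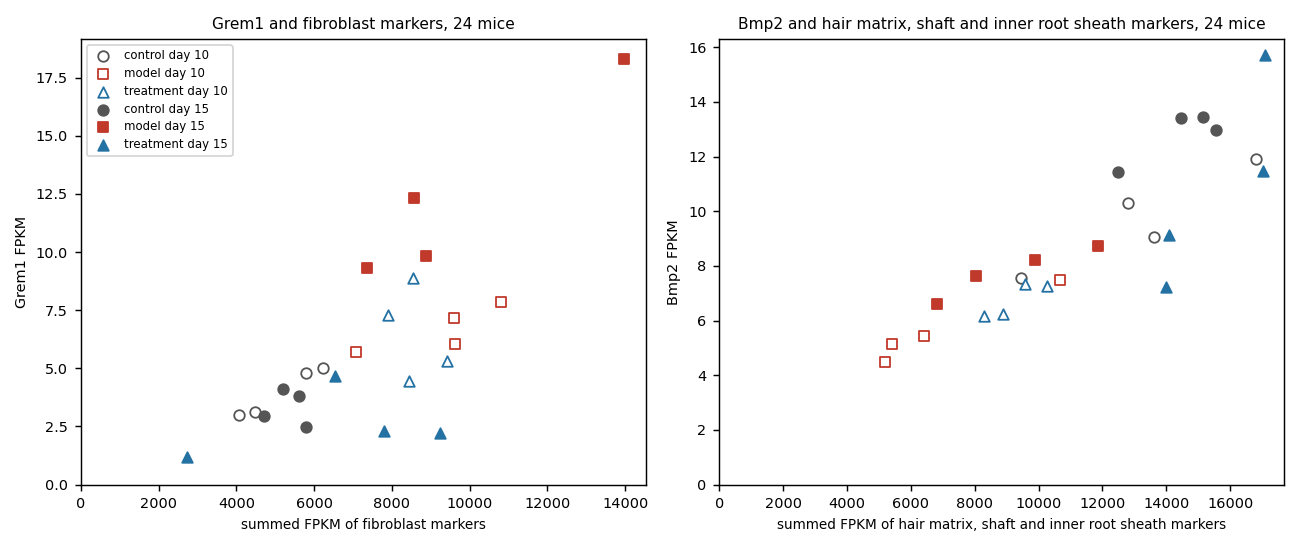
Left, Grem1 FPKM (vertical) against the summed FPKM of 6 fibroblast markers (horizontal); right, Bmp2 FPKM against the summed FPKM of 15 hair matrix, shaft and inner root sheath markers, 1 point per mouse, open at day 10 and filled at day 15. Model mouse 2 of day 15 lies at 13970 and 18.3 FPKM in the left panel. There, 3 treatment mice of day 15 lie between 6527 and 9224 with Grem1 at or below 4.65. In the right panel the model mice lie towards the lower left, as do the treatment mice of day 10.

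Among the ligands, Bmp2 was lower in model skin at both days. Bmp2 is made by matrix and hair shaft precursor cells of the growing follicle. At day 10 it stood at 9.04, 7.54, 11.9 and 10.3 FPKM in control, 7.49, 5.44, 4.48 and 5.14 in model and 7.35, 6.17, 6.25 and 7.26 in treatment mice. At day 15 the values were 11.4, 13.4, 12.99 and 13.4 in control, 8.74, 6.62, 7.62 and 8.21 in model and 11.5, 7.21, 15.7 and 9.11 in treatment mice. Control and model mice did not overlap at either day, though at day 10 the lowest control and the highest model mouse nearly met. In model against control Bmp2 fell by 0.69 at day 10 (SE 0.168, limma adjusted p = 0.013) and by 0.66 at day 15 (SE 0.168, adjusted p = 0.021). The first call was lost without control or model replicate 3 (limma adjusted p up to 0.058), the second without any 1 of 5 libraries, control replicates 2, 3 and 4 and model replicates 2 and 3 (up to 0.065). Treatment and model mice overlapped at both days. The difference was 0.24 at day 10, with a 95% interval from -0.11 to 0.59, and 0.39 at day 15, with an interval from 0.04 to 0.74 (limma adjusted p = 0.11).

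Markers of the hair matrix, shaft and inner root sheath, 15 genes, moved with Bmp2 in part. In model against control 13 were called lower at day 10 (median -1.11) and 6 at day 15 (median -0.64), and in treatment against model all 15 were called higher at day 15 (median 0.82). Their summed level was 9446 to 16815 FPKM in control, 5196 to 10662 in model and 8280 to 10269 in treatment mice of day 10, and 12500 to 15568, 6827 to 11873 and 14003 to 17106 in the same order at day 15. Model replicate 1 of day 10 had the highest marker sum of its group and also the highest Bmp2, Bmp4, Bmp7, Bambi and Bmpr1a. Treatment replicates 1 and 3 of day 15, with sums of 17024 and 17106, had Bmp2 at 11.5 and 15.7 FPKM. Replicates 2 and 4 of that group, with sums of 14003 and 14078.5, had Bmp2 at only 7.21 and 9.11 FPKM. Between days in control skin the median of the hair markers was 0.03, while the difference of Bmp2 was 0.38. Basal keratinocyte markers, 6 genes, had 2 called lower in model against control at day 15 (median -0.41), with sums of 1469 to 1664 FPKM in control and 713 to 1297 in model mice, which did not overlap. In treatment against model at day 15 none of those 6 was called (median 0.05), and 3 of 5 melanocyte markers were called higher (median 0.68). The part of follicle, basal or pigment cells in the differences of Bmp2, Bmp6, Bmp7 and Bambi was not tested.

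Bmp7, a ligand that can form heterodimers with Bmp2 or Bmp4, was at 15.7, 16.9, 19.9 and 17.9 FPKM in control, 16.0, 12.6, 11.2 and 13.8 in model and 18.8, 15.5, 21.4 and 15.3 in treatment mice of day 15. Model replicate 1 reached the control and treatment ranges, and the other 3 model mice lay below both. Bmp7 fell by 0.37 in model against control (SE 0.116, limma adjusted p = 0.046) and in treatment against model it rose by 0.38 (SE 0.116, adjusted p = 0.028). The first call was lost without any 1 of 6 of the 8 libraries (all but control replicate 1 and model replicate 1) and under 5 of 9 alternatives. The second was lost without model replicates 2 or 3 or treatment replicates 1 or 3, and under 3 of 10 alternatives. At day 10 the means were 17.6 ± 2.04 (SD, n = 4) in control, 13.9 ± 1.68 in model and 14.8 ± 1.21 FPKM in treatment mice. The model-control difference of that day was -0.32, with a 95% interval from -0.56 to -0.08 (limma adjusted p = 0.069).

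Bmp6, a ligand made in the bulge among other places, was at 4.78, 4.61, 5.23 and 5.65 FPKM in control, 4.15, 3.60, 2.37 and 3.94 in model and 5.71, 3.76, 5.12 and 4.30 in treatment mice of day 15. Control and model mice did not overlap, and treatment replicate 2 fell within the model range. Bmp6 fell by 0.44 in model against control (SE 0.121, limma adjusted p = 0.029) and in treatment against model it rose by 0.35 (SE 0.121, adjusted p = 0.049). Each call was lost without any 1 of 4 libraries: control replicates 3 and 4 with model replicates 2 and 3, and model replicates 2 and 3 with treatment replicates 1 and 3. The second was also lost under 7 of 9 alternatives, the first under 1 of 8. At day 10 the 3 group means lay between 3.79 and 4.41 FPKM, and the model-control difference of -0.10 had a 95% interval from -0.35 to 0.15.

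Bmp4, made by the dermal papilla as well as by matrix cells, was called in none of the model or treatment comparisons. In day 10 mice its values ran from 14.9 to 16.7 FPKM in control, 12.5 to 15.9 in model and 10.96 to 14.3 in treatment skin. At day 15 they ran from 9.50 to 12.9, 8.18 to 12.2 and 9.17 to 16.2 FPKM. The groups of a day overlapped, except that all treatment mice lay below all control mice at day 10. That difference was -0.34, with a 95% interval from -0.62 to -0.05 (limma adjusted p = 0.14). The model-control differences were -0.21 at day 10 (interval -0.50 to 0.08) and -0.16 at day 15 (interval -0.44 to 0.13).

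Bambi, the decoy receptor, was at 11.1, 14.3, 15.4 and 14.02 FPKM in control, 10.4, 7.60, 8.21 and 10.5 in model and 17.3, 10.6, 19.5 and 12.2 in treatment mice of day 15. Every model mouse was below every control and treatment mouse, in both cases by a narrow gap. Bambi fell by 0.53 in model against control (SE 0.171, limma adjusted p = 0.049) and in treatment against model it rose by 0.62 (SE 0.171, adjusted p = 0.017). The first call was lost without any 1 of 5 libraries (control replicates 2, 3 and 4, model replicates 2 and 3) and under 5 of 9 alternatives, and the second without model replicate 2 or treatment replicate 1 and under 2 of 10 alternatives. At day 10 Bambi was at 13.4, 12.1, 17.96 and 15.2 FPKM in control, 14.8, 10.5, 9.38 and 9.75 in model and 12.4, 10.9, 9.73 and 12.7 in treatment mice. Model and control mice overlapped through model replicate 1 alone, and the model-control difference of -0.38 was not called (limma adjusted p = 0.14).

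Bmpr1a, the type I receptor that hair shaft differentiation needs, was not called in any comparison. Its means were 52.1 ± 4.22 (SD, n = 4), 43.5 ± 4.25 and 44.8 ± 3.27 FPKM in control, model and treatment mice of day 10, and 48.2 ± 3.09, 39.0 ± 5.47 and 43.1 ± 10.3 FPKM at day 15. The model-control differences were -0.26 at day 10 (95% interval -0.52 to 0.01) and -0.30 at day 15 (interval -0.57 to -0.04, limma adjusted p = 0.12). Treatment mice of day 15 spanned 30.5 to 55.3 FPKM, the lowest and nearly the highest value over all 24 mice, and had the largest SD of the 6 groups for this gene.

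The Id genes encode proteins that bind basic helix-loop-helix transcription factors and keep them off DNA, and are direct Smad targets. None of the 3 was called in any of the model or treatment comparisons. At day 15 Id1 was at 48.6, 55.7, 55.7 and 50.1 FPKM in control, 46.7, 38.6, 41.7 and 44.9 in model and 57.4, 44.5, 72.4 and 43.4 in treatment mice. Control and model mice of that day did not overlap. The difference was -0.28, with a 95% interval from -0.53 to -0.03 (limma adjusted p = 0.12), and that of treatment against model was 0.31, with an interval from 0.06 to 0.56 (adjusted p = 0.077). At day 10 the Id1 means were 56.1, 51.8 and 51.2 FPKM in control, model and treatment mice.

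Id3 in treatment against model was -0.18 at day 10 (95% interval -0.38 to 0.01, limma adjusted p = 0.51) and 0.24 at day 15 (interval 0.05 to 0.44, adjusted p = 0.075). Its values at day 10 were 77.9 to 82.2 FPKM in model and 65.7 to 76.0 in treatment mice, which did not overlap. At day 15 they were 54.2 to 74.6 and 68.8 to 87.0 FPKM, which did. Id2 was at 56.0 to 64.1 FPKM in model and 50.7 to 55.7 in treatment mice of day 10, also without overlap, with a difference of -0.19 (interval -0.37 to -0.0014, limma unadjusted p = 0.048, adjusted p = 0.47). The model-control differences of Id2 were 0.05 and 0.02, and those of Id3 -0.02 and -0.09, at day 10 and day 15. The 95% intervals of these 4 values all lay between -0.29 and 0.23. The kidney markers named above were present in every model mouse of day 10 and absent or nearly so in every treatment mouse, with Kap and Umod at 0 there, so this difference between the libraries and the extract cannot be told apart at that day.

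Treatment against control compares skin under DHT and extract with skin of saline-injected mice under solvent. None of the 10 genes was called at day 10, when 3.24% of all genes were. At that day 4 had an unadjusted p under 0.05 (Bmp2, Bmp4, Grem1 and Id3), as had 3395 of the 13039 tested genes. None was called at day 15 either, when 0.314% of all genes were. At day 15 none of the 10 had an unadjusted p under 0.05, against 2572 of the 13039 tested genes. The differences at day 15 ran from -0.34 (Grem1) to 0.16 (Id3). Without treatment replicate 3, Bmp2 was called at day 15, lower in treatment. At day 10 the kidney marker sum was 0.101 to 0.167 FPKM in treatment and 25.4 to 29.3 in control mice, so this difference between the libraries and the treatment cannot be told apart. The intervals of single genes remained wide, as for Bmp2 at day 15, whose difference of -0.27 had a 95% interval from -0.62 to 0.08.

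Between days, Bmp4 fell in control skin from 16.1 ± 0.845 to 11.3 ± 1.45 FPKM (SD, n = 4; log2 difference -0.48, SE 0.138, limma adjusted p = 0.048), the only 1 of the 10 genes called there, with 4.81% of all genes called (1.48% higher, 3.33% lower). That call was lost without any 1 of 7 of the 8 libraries (all but control replicate 3 of day 15). Dermal papilla markers, 6 tested, had 2 called lower in the same comparison (median -0.41), and 3 of 5 melanocyte markers were called lower (median -0.65). In model skin none was called, with 8.47% of all genes called. Grem1 had a difference of 0.77 (limma adjusted p = 0.059), Bmp4 of -0.43 (adjusted p = 0.057) and Id3 of -0.30 (adjusted p = 0.053). For each of them the mice of the 2 days did not overlap. In model skin 5 of the 10 genes and 3537 of the 13039 tested genes had an unadjusted p under 0.05. There, 4 of 6 dermal papilla markers (median -0.55) and 5 of 5 melanocyte markers (median -0.74) were called lower, and 4 of 15 hair markers higher (median 0.47). In treatment skin 2 were called, with 9.64% of all genes called (2.11% higher, 7.53% lower). Bmp2 rose by 0.57 (SE 0.168, limma adjusted p = 0.038) and Grem1 fell by 1.10 (SE 0.249, adjusted p = 0.010), though in both the mice of the 2 days overlapped. The Bmp2 call was lost without any 1 of 6 libraries, all 4 of day 10 and treatment replicates 1 and 3 of day 15. Beside them, 9 of 15 hair markers were called higher (median 0.73), and 4 of 6 basal keratinocyte (median -0.62), 2 of 6 fibroblast (median -0.58) and 2 of 6 dermal papilla markers (median -0.33) lower. The part of these cells in the differences between days was not tested. Kidney markers were present at day 10 and nearly absent at day 15 in control and model mice, and this difference and the day cannot be told apart. In treatment mice 3 of 4 libraries of day 15 and 1 of 4 of day 10 were low in Y-linked genes, and the part of this in the result was not tested.

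Other genes of the pathway were read from a list of 52, of which 51 were in the table and 40 were tested. The ligands Bmp5, Bmp8b, Gdf2, Gdf5, Gdf6 and Gdf7, the receptor Bmpr1b and Smad9 were among the 11 that failed the filter on low values. In model against control 8 of 40 were called higher and 2 lower at day 10, and 5 higher and 4 lower at day 15, with medians of 0.02 and -0.06. In treatment against model none was called at day 10. There 3 of the 40 had an unadjusted p under 0.05, against 1360 of the 13039 tested genes. At day 15, 3 were called higher and 3 lower. In these lists the share called can be read against 13.8%, 10.8%, 0.192% and 19.7% of all genes.

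Antagonists and modulators held most of the higher calls in model skin: 6 of 14 tested at day 10 and 4 of 14 at day 15, none lower. Of all genes 6.79% and 4.23% were called higher. Fibroblast markers had medians of 0.81 and 0.72 in the same 2 comparisons. The part of these cells in the differences of this paragraph was not tested. Fstl1, a follistatin-like secreted glycoprotein, went from 189 ± 41.0 to 333 ± 56.8 FPKM (SD, n = 4) at day 10 and from 170 ± 8.53 to 303 ± 28.0 at day 15 (limma log2 differences 0.82 and 0.82, adjusted p = 0.018 and 0.023). Bmper, a BMP-binding protein of endothelium and other cells, rose by 0.44 and 0.34 (adjusted p = 0.0067 and 0.029). Bmp1, in spite of its name a metalloprotease that cleaves procollagen and chordin, rose by 0.59 at each day (limma adjusted p = 0.041 and 0.048). Chrd, which encodes the antagonist chordin, was called at day 10 at a low level, 0.439 ± 0.117 FPKM in control against 1.07 ± 0.117 in model mice, and so was its relative Chrdl1 (difference 0.52, limma adjusted p = 0.028). Nog, which encodes noggin, was at or below 1.74 FPKM in every mouse.

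Of the 3 tested ligands outside the 10, Gdf10, a divergent member of the superfamily also called BMP3B, rose in model skin by 1.39 at day 10 and 0.92 at day 15 (limma adjusted p = 0.0028 and 0.025), from 4.34 to 12.6 and from 5.24 to 11.5 FPKM. In treatment against model at day 15 it fell by 0.71 (adjusted p = 0.047). Bmp3 was called lower in model skin of day 15, from 1.42 to 0.789 FPKM. Of 9 receptors and co-receptors 1 was called in model against control at day 10 and none at day 15. It was Acvrl1, a type I receptor of endothelium, with 6.15 ± 0.583 FPKM in control and 11.5 ± 0.661 in model mice (limma difference 0.81, adjusted p = 0.017). Of 7 endothelial markers 2 were called higher in that comparison (median 0.08), with sums of 64.8 to 72.7 FPKM in control and 72.8 to 83.3 in model mice, and 1 at day 15 (median 0.36). Their part in the Acvrl1 difference was not tested. Of 7 Smads and their regulators the inhibitory Smad7 was called, lower in model skin at both days (-0.60 and -0.63, adjusted p = 0.040 and 0.042), while Smad1, Smad4 and Smad5 were not called in these comparisons.

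Among 7 other targets, the homeobox genes Dlx3 and Msx2, both active in the hair matrix, were called. Dlx3 was at 130 to 177 FPKM in control and 89.5 to 137 in model mice of day 10, and at 119 to 158, 68.3 to 113 and 116 to 187 in control, model and treatment mice of day 15. In model skin it fell by 0.51 and by 0.64 (limma adjusted p = 0.043 and 0.022) and rose in treatment against model at day 15 by 0.68 (adjusted p = 0.0092). In model skin of day 15 Msx2 fell by 0.69 and in treatment against model it rose by 0.74 (limma adjusted p = 0.027 and 0.011). Gata3, a transcription factor of the inner root sheath, rose in treatment against model at day 15 by 0.50 (limma adjusted p = 0.041). The hair markers given above went the same way in these comparisons. The part of follicle cells in the differences of Dlx3, Msx2 and Gata3 was not tested. The antagonist Fst, which encodes follistatin, fell there from 16.8 ± 7.72 to 9.11 ± 2.36 FPKM (SD, n = 4; difference -0.76, limma adjusted p = 0.020), and Twsg1 fell by 0.24. Between days Sostdc1, a secreted antagonist of BMP and Wnt signals, fell in all 3 treatments, from 22.4 to 10.96 FPKM in control, 18.6 to 8.996 in model and 18.4 to 9.15 in treatment skin (limma adjusted p = 0.0097, 0.0079 and 0.0072). Msx1 was also called lower at day 15 in all 3, and Id4, a relative of the Id genes, in control and model skin. The Msx1 calls were lost without any 1 of 6 of 8 libraries in control skin and 4 of 8 in treatment skin, and without the libraries low in Y-linked genes the treatment difference was -0.20 (limma adjusted p = 0.70). Those of Id4 were lost without any 1 of 6 libraries in control and 4 in model skin. Of the pathway calls in the main comparisons, those of Gdf10 and Bmper in model skin of day 10 and of Dlx3 and Msx2 in treatment against model were made without any 1 library, and that of Chrd in the 5 such fits that tested it. The others were each lost without at least 1 library. At each day the Bmp1 call was lost without any 1 of 7 of the 8 libraries, that of Smad7 of 6 and that of Fstl1 of 5. For Bmper at day 15 it was 6, and for Dlx3 in model skin 6 at day 10 and 5 at day 15. For Acvrl1 at day 10 and for Twsg1 it was 2. The Bmp1 and Smad7 calls of both days and that of Dlx3 in model skin of day 10 were also lost under 2 of 9 alternatives. In a fit of only the groups compared, Dlx3 and Msx2 had limma adjusted p of 0.16 and 0.18 in treatment against model.

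Model against control at day 10 and at day 15 shares no library. All 10 genes had the same sign at both days, as did 33 of the 40 other pathway genes (82.5%) and 80.2% of all tested genes. For treatment against model, which also shares no library between days, the counts were 6 of 10, 26 of 40 (65.0%) and 65.7%.

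**Figure D4:**
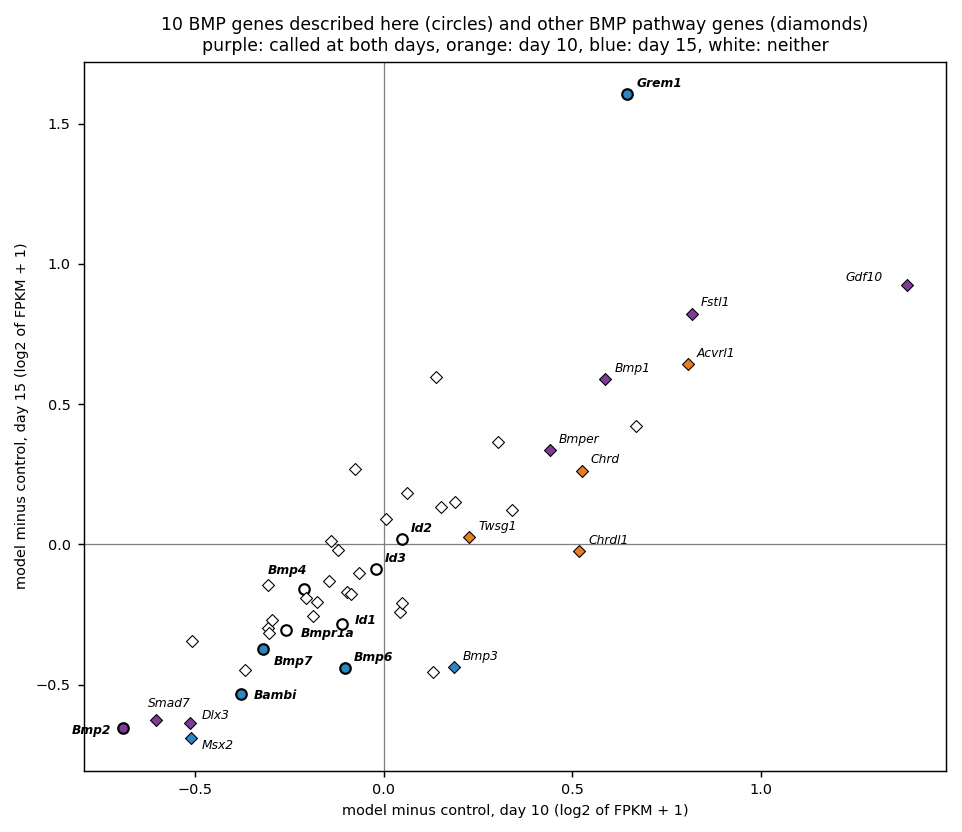
Log2 difference of model against control at day 10 (horizontal) and day 15 (vertical) for the 10 genes (circles) and other tested pathway genes (diamonds), coloured by whether limma called them. Grem1 lies at 0.65 and 1.61 and Gdf10 at 1.39 and 0.92, while Bmp2, Smad7, Dlx3 and Msx2 form the lower left end.

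Likeness of pattern was measured as Pearson's r of log2(FPKM + 1) over the 24 libraries, which share their 6 groups and the cell makeup of each piece of skin. The genes most like Grem1 were Ssr3, a subunit of the translocon-associated complex of the endoplasmic reticulum (r = 0.90), Lpar1, a lysophosphatidic acid receptor (0.87), and Tent5a (0.87). With group means removed these values were 0.78, 0.71 and 0.61. Bmp2 was most like Capn12 (0.98), Clk3 (0.97) and Cyria (0.97), and Bambi most like Dlx3, Bag2 and Llgl2 (all 0.96). Bmp7 was most like Prom2 (0.95), Bag2 (0.94) and Rad23b (0.94). Among the 10 genes themselves the closest relation found for Bmp7 was with Bambi (r = 0.93, 17th of 13038 genes), and that of Grem1 with Bambi was -0.78, or -0.52 with group means removed.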

How the data were processed

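Poly(A) RNA of mouse skin was sequenced in 24 libraries, 1 per mouse, after TRIzol extraction and VAHTS Universal V6 library preparation, per the labels' protocols. The authors used fastp, HISAT2, HTSeq and build GRCm39, per the submitters' processing notes; versions, settings and annotation are not given in the sources used here. The authors deposited FPKM per gene symbol, with column totals from 413117 to 455945, and all 24 columns were used.

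Depth was recovered from the FPKM steps: whole reads were found for 18703 of 18715 genes (99.9%, tolerance 0.01 of a read for low and 0.05 for high genes), with 3.31e+07 to 3.81e+07 reads a library. The main test was made in R 4.3.3 with limma 3.58.1, by lmFit, contrasts.fit and eBayes (trend and robust set), on log2(FPKM + 1). It used all 24 libraries, 1 mean per group and 18 residual degrees of freedom, for genes that reached 1 FPKM in 4 or more libraries (13039 kept, 5853 removed). Tests were two-sided, with Benjamini-Hochberg adjustment over genes in each of 11 comparisons, and the fit was tested on simulated data. The pseudocount of 1 understates differences of low genes. Groups and replicate numbers come from the sample titles.

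The 10 genes, the pathway list and the marker lists were chosen with earlier results of these data known. Named pathway genes are those called, up to 4 per role and comparison by smallest p; Nog, the untested genes and the uncalled Smads were added after their values were seen. A gene that meets this rule is not reported here, though counts include it. Like genes are the 3 with the highest r, leaving out unnamed gene models. The alternatives changed the pseudocount to 0.1, dropped the filter or set it at a mean of 5 FPKM, scaled libraries by median-of-ratios or to a common total, used array weights, a replicate block or voom on the recovered reads, fitted only the groups compared, or left out each library in turn. A fit without 4 treatment libraries low in Y-linked genes (sum under 35 FPKM) was chosen after seeing the data.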

Additional observations from a re-analysis of the deposited data

Results flagged for a closer look

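Id2 in control replicate 2 of day 10 stood at 63.1 FPKM, far from the next highest mouse of its group at 57.5 and from the other two. It was the only 1 of 60 gene and group combinations with such a gap, and chance gives about 1 in 20.

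The treatment-model difference of Grem1 was lower at day 15 than at day 10, with a log2 difference between the days of -1.87 (limma adjusted p = 0.036, 4 mice in each of the 4 groups). This call was lost in 9 of the 16 fits that left out 1 library. It was also lost with the filter at a mean of 5 FPKM and in a fit of only the groups compared (limma adjusted p up to 0.18). All 4 treatment mice lay below all 4 model mice at day 15, and the mice overlapped at day 10. The 3 tested kidney markers, present in model and nearly absent in treatment mice of day 10, were called in the same comparison. This difference between the libraries and the change cannot be told apart.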

How the results depend on the processing

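No called value of the 10 genes changed sign under any setting run. Of 2079 recomputed differences of single genes 88 changed sign, none of them called in either fit and none above 0.287 in size. The share of all genes called also moved with the setting and is not given for each. The counts below therefore do not single out the 10 genes. With array weights the number of the 10 genes called went from 1 to 6 in model against control at day 10, from 0 to 1 and from 4 to 1 in treatment against model at day 10 and day 15, from 0 to 5 in treatment against control at day 10, from 1 to 3 and from 0 to 4 between days in control and model skin, and from 1 to 2 for the change of the treatment-model difference. A fit of only the groups compared gave 2 instead of 1 and 2 instead of 5 in model against control at day 10 and day 15, 0 instead of 4 in treatment against model at day 15, 2 instead of 0 in treatment against control at day 10, 0 instead of 2 between days in treatment skin and 0 instead of 1 for the change of the treatment-model difference. In model against control at day 15, no filter, a common total and voom each gave 3 instead of 5. A common total gave 2 instead of 4 in treatment against model at day 15, 1 instead of 2 between days in treatment skin and 1 instead of 0 in model skin, where voom also gave 1. No filter, a mean of at least 5 FPKM and median-of-ratios scaling each gave 0 instead of 1 between days in control skin, and no filter gave 1 instead of 2 in treatment skin. A mean of at least 5 gave 0 instead of 1 for the change of the treatment-model difference, as the Grem1 call was lost. That filter also removes Bmp6, which was not called there in the main fit. In the fit given next, the only treatment library of day 15 is replicate 3, the library that stood apart. Within its group it had the lowest Grem1 (1.19 FPKM) and the highest Bmp2, Bmp4, Bmp7, Bambi, Id1 and Id3. The day 15 treatment values of that fit therefore describe 1 outlying mouse, and its counts do not show that the calls are stable. Without the 4 libraries low in Y-linked genes, which leaves 1 treatment library at day 15 that is assumed to vary like the other groups, the counts were 8 instead of 4 in treatment against model at day 15 (all but Bmp6 and Id2) and 2 instead of 1 for the change of the treatment-model difference.

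Leaving out 1 library at a time, the counts ran from 0 to 3 and from 1 to 5 in model against control at day 10 and day 15, from 1 to 6 in treatment against model at day 15, from 0 to 1 in treatment against control at day 15, from 0 to 1, 0 to 2 and 1 to 2 between days in control, model and treatment skin, and from 0 to 1 for the change of the treatment-model difference. Replicate numbers are not stated to pair the mice. Same-numbered mice deviated with correlations from -0.63 to 0.51 over the 9 comparisons of 2 groups. In treatment against model at day 10 they ran from 0.06 to 0.45, against a median of -0.05 for other numbers. With 4 pairs a comparison, a pairing is not excluded. With the replicate block 2 instead of 1 of the 10 genes were called in model against control at day 10, 0 instead of 1 between days in control skin and 1 instead of 0 in model skin. Over all genes, a common total moved the split of higher and lower calls from 885 and 918 to 1044 and 613 in model against control at day 10, from 552 and 856 to 744 and 473 at day 15, and from 1348 and 1215 to 677 and 1660 in treatment against model at day 15. With 4 mice a group, a difference that was not called is not shown to be absent.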
